A study of Mus musculus with 20 samples.

Results

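The transcripts described here are those of 10 genes of skeletal muscle (*Acta1*, *Ckm*, *Mylpf*, *Myl1*, *Tnnt3*, *Tnnc2*, *Tnni2*, *Myh4*, *Myh1* and *Actn3*), out of 25655 genes counted in RNA of the mouse utricle, an organ of balance that has no skeletal muscle of its own. They were chosen by name. *Acta1* and *Ckm* serve slow as well as fast fibres and the other 8 genes mark fast fibres, and the rows of these names were found for 10 of 10. Utricles of female C57BL/6J mice were compared in 4 groups of 5 libraries, taken 4 weeks after an operation at the age of 8 weeks. The sham + v group had a sham operation and a vehicle pellet, and the mice of the other 3 groups were ovariectomized (OVX). The OVX + v group carried a vehicle pellet, the OVX + E2 group a pellet of 50 µg of estradiol for 60 days, and the OVX + RAL group a pellet of 2.4 mg of raloxifene, a modulator of estrogen receptors, for 60 days. The utricle was reached through the oval window of the middle ear, and each library was built from 1 ng of RNA with a kit that reads the 3′ ends of mRNA. The sources used here do not say whether a library holds the RNA of 1 or of several animals, so that p-values measure only the spread between these libraries. Libraries are named by their numbers, 1 to 5 for sham + v, 6 to 10 for OVX + v, 11 to 15 for OVX + E2 and 16 to 20 for OVX + RAL.

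A muscle fibre contracts when calcium binds troponin on the thin filament of actin and tropomyosin and so lets the heads of myosin pull on actin. Fast fibres use their own forms of most of these proteins and of the enzymes that supply ATP, and these mRNAs are among the most abundant of a muscle cell. Small muscles insert on the ossicles of the middle ear near the oval window, and the inner ear itself holds hair cells, supporting cells, nerve, connective tissue and blood vessels. Levels are given as counts or as CPM, the count divided by the total of its library and scaled to a total of 1000000. They are not divided by transcript length, as the kit reads the ends of transcripts, and levels are therefore compared between libraries and not between genes.

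The members lie on 6 chromosomes of the GRCm39 genome, with coordinates as the deposited tables give them. *Acta1* (skeletal α-actin) lies at chr8:124618508-124621490 on the − strand, *Ckm* (the creatine kinase of muscle) at chr7:19138701-19156766 on the + strand, and *Actn3* (the α-actinin of the fast Z-disc) at chr19:4911244-4927937 on the − strand. *Mylpf* (the regulatory light chain of fast myosin) lies at chr7:126808062-126813470 on the + strand and *Myl1* (the essential light chain) at chr1:66963454-66984563 on the − strand. The troponin genes *Tnnt3*, *Tnni2* and *Tnnc2*, which encode the tropomyosin-binding, inhibitory and calcium-binding subunits of fast fibres, lie at chr7:142052573-142069746 (+), chr7:141995545-141998147 (+) and chr2:164619081-164621887 (−). The heavy chains *Myh1* (type IIX) and *Myh4* (type IIB) are neighbours at chr11:67090878-67115401 and chr11:67128855-67151272, both on the + strand.

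The 250 bases upstream of the start were available for 7 of 10 members in the RefSeq promoter table of build GRCm38.p6. Those of *Acta1* (chr8:123894776-123895025, − strand), *Myh4* (chr11:67237562-67237811, + strand) and *Myh1* (chr11:67199852-67200101, + strand) are shown because the actin led the counts of the library richest in muscle transcripts, and because the neighbouring myosins were counted in partly different libraries. Capitals mark CAGCTG (a form of the E-box that myogenic factors bind), TATAAA read on either strand (as TTTATA on the other), and the CArG box, which serum response factor binds.
Acta1: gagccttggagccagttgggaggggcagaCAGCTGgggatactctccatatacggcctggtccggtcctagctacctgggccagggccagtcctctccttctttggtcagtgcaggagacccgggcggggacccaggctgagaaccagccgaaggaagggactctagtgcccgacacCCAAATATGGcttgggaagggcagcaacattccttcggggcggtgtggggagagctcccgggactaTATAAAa
Myh4: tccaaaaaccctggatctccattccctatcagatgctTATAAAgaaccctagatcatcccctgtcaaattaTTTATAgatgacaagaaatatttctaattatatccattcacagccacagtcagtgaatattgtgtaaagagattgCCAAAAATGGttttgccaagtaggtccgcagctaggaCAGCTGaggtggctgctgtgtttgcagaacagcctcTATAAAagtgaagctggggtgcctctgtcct
Myh1: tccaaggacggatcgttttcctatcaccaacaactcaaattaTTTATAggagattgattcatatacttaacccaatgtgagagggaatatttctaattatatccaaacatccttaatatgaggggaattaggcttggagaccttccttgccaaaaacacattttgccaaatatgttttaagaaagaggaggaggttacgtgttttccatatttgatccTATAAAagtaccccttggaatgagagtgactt
CAGCTG, which reads the same on both strands, stood in 5 of 7 member promoters and in 13% of 32851 promoters of this length. TATAAA stood in 4 of 7, against 12.4% of all. The CArG box stood in 2 of 7 (*Acta1* and *Myh4*), against 1.47%. The box of the MEF2 factors, in the form searched, stood in 0 of 7, against 0.508%. Other forms of that box were not counted, so the 0 does not show that these promoters lack it. The matches overlap no match to another pattern as searched, and they describe letters only. No count of these libraries bears on binding.

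The libraries held 1123053 to 2081747 counts, and those of OVX + E2 held 1123053 to 1507667. A member was called detected in a library from 3 counts up, which corresponds to 1.44 to 2.67 CPM, and intervals and limits cover counting error only, as reads were counted without molecular identifiers. The tissue was recognizable in every library. The 12 hair cell genes listed summed to between 936 and 2164 CPM and the 8 genes of otoconia and supporting cells to between 1447 and 4583 CPM, and *Myo6*, *Pou4f3*, *Gfi1*, *Otog*, *Otoa* and *Otol1*, the leading genes of both lists, were detected in 20 of 20 libraries. *Otog* alone averaged 2508 CPM and so carried most of the second sum. Some other listed genes were detected in fewer libraries, such as *Oc90* and *Otop1* in 7 and 10 and *Strc* and *Cib2* in 10 and 12. In bulk RNA, fewer cells of a type and less RNA per cell cannot be told apart.

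Muscle transcripts were present in some libraries of every group and near or at 0 in others of the same group. Of 200 pairs of a member and a library, 133 had 0 counts, 8 had 1 or 2, 7 had 3 to 9 and 52 had 10 or more, and the median of the 59 detected pairs was 35 counts. Thus a member was mostly either not counted or counted well above the floor. The 9 members with a count were each detected in a median of 6 libraries, with 62.8% of pairs at 0. The 5911 other genes with totals in the same range (92 to 795 counts) were detected in a median of 9 libraries, with 48.7% of pairs at 0.

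**Figure D1:**
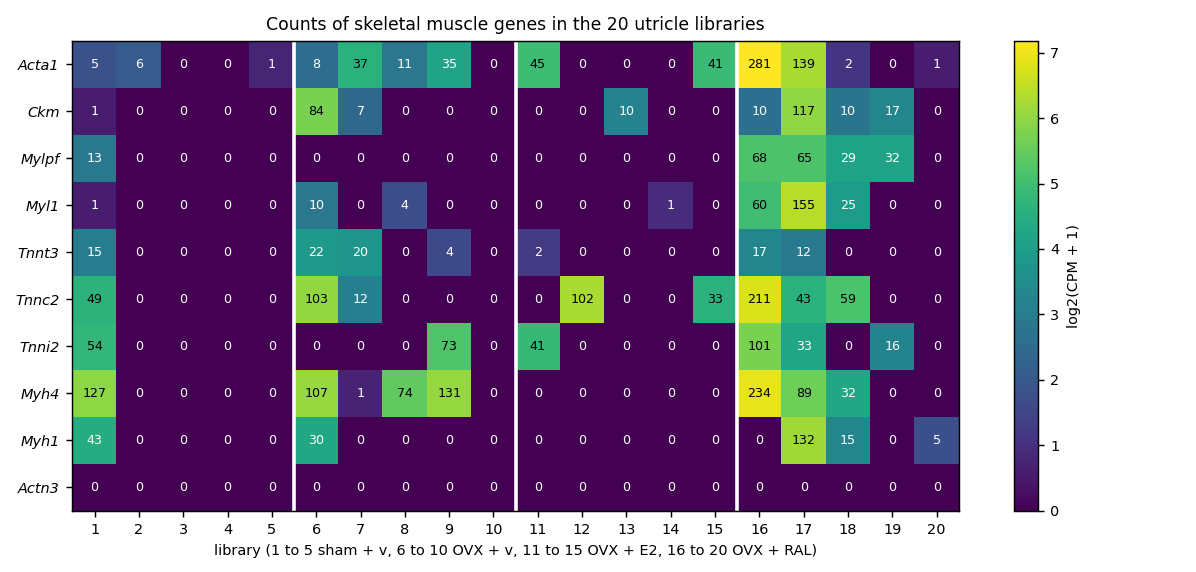
Counts of the 10 members (rows) in the 20 libraries (columns), with the colour giving log2(CPM + 1) and white lines dividing the groups of 5. The counts stand mostly in libraries 1, 6, 9, 16, 17 and 18, while libraries 3, 4 and 10 hold 0 in every row and *Actn3* holds 0 in every column.

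The skeletal actin *Acta1*, the main thin filament protein, was the member detected in the most libraries (10 of 20). It had 5, 6, 0, 0 and 1 counts in sham + v, 8, 37, 11, 35 and 0 in OVX + v, 45, 0, 0, 0 and 41 in OVX + E2, and 281, 139, 2, 0 and 1 in OVX + RAL. The groups overlapped, and libraries 16 and 17 held 68.6% of its 612 counts. *Actn3*, which anchors actin at the Z-disc of fast fibres, had 0 counts in all 20 libraries, so that its level in each was under the floor of 3 counts.

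The troponin subunits were patchy, and all 3 were detected together in libraries 1, 16 and 17, 2 of them in 3 other libraries and 1 alone in 5. *Tnnc2* had 49 counts in sham + v library 1 and 0 in the other 4, then 103, 12, 0, 0 and 0 in OVX + v, 0, 102, 0, 0 and 33 in OVX + E2, and 211, 43, 59, 0 and 0 in OVX + RAL. *Tnni2* had 54 counts in library 1 and 0 in the rest of sham + v, 73 in library 9 and 0 in the rest of OVX + v, 41 in library 11 and 0 in the rest of OVX + E2, and 101, 33, 0, 16 and 0 in OVX + RAL. *Tnnc2* and *Tnni2* were detected together in 3 libraries, the former without the latter in 5 and the latter without the former in 3. *Tnnt3* had 15 counts in library 1 and 0 in the rest of sham + v, 22, 20, 0, 4 and 0 in OVX + v, 2, 0, 0, 0 and 0 in OVX + E2, and 17, 12, 0, 0 and 0 in OVX + RAL. It was the least counted of the members with any count, at 92 in all, and 5 of the 6 libraries in which it was detected also had *Tnnc2* and 4 had *Tnni2*.

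The myosin heavy chains form the thick filament and set the speed of a fibre. *Myh4* had the most counts of the members (795), with 127 in library 1 and 0 in the other sham + v libraries, 107, 1, 74, 131 and 0 in OVX + v, 0 in all 5 OVX + E2 libraries, and 234, 89, 32, 0 and 0 in OVX + RAL. *Myh1* had 43 counts in library 1 and 0 in the rest of sham + v, 30 in library 6 and 0 in the rest of OVX + v, 0 in all 5 OVX + E2 libraries, and 0, 132, 15, 0 and 5 in OVX + RAL. The neighbours were detected together in 4 libraries, *Myh4* alone in 3 and *Myh1* alone in 1. *Myh2*, the heavy chain of type IIA fibres and no member, had 318 counts in library 16 and at most 2 in any other library. It was chosen after its values were seen. Of the 338 windows of 63 nucleotides in the last 400 of *Myh4*, 21 (6.21%) also occur in transcripts of *Myh2* and *Myh1*, at any position. Part of the *Myh4* reads may therefore match those genes too.

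The light chains of myosin stood mostly in OVX + RAL libraries. *Mylpf* had 13 counts in library 1 and 0 in the rest of sham + v, 0 in all OVX + v and OVX + E2 libraries, and 68, 65, 29, 32 and 0 in OVX + RAL. *Myl1* had 1 count in sham + v library 1 and 0 in the rest, 10, 0, 4, 0 and 0 in OVX + v, 1 count in OVX + E2 library 14 and 0 in the rest, and 60, 155, 25, 0 and 0 in OVX + RAL. Libraries 16 and 17 held 84.0% of the *Myl1* counts and 64.3% of those of *Mylpf*. Of the windows at the end of *Myl1*, 27 of 338 (7.99%) are shared with the pseudogene *Mylf-ps*, and for the 8 members other than *Myl1* and *Myh4* 0 windows are shared.

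The creatine kinase *Ckm*, which regenerates ATP at the myofibril, had 1 count in sham + v library 1 and 0 in the rest. It had 84, 7, 0, 0 and 0 in OVX + v, 10 in library 13 and 0 in the rest of OVX + E2, and 10, 117, 10, 17 and 0 in OVX + RAL. Genes on the opposite strand overlap *Ckm*, *Mylpf*, *Tnnt3*, *Tnnc2*, *Myh1* and *Actn3*, and whether the authors counted by strand is not given in the sources used here.

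Summed over the 10 members, the level was 150, 3.15, 0, 0 and 0.663 CPM in the sham + v libraries, 227, 48.3, 50.4, 120 and 0 in OVX + v, 58.4, 77, 8.02, 0.890 and 51.9 in OVX + E2, and 505, 423, 101, 34.1 and 2.88 in OVX + RAL. In each group the lowest library was at 2.88 CPM or less and the highest at 77 CPM or more, so that the groups overlapped. The highest sum, in library 16, was 982 counts or 0.0505% of the library (505 CPM, 95% interval 474 to 538, exact Clopper-Pearson). The 0 counts of libraries 3, 4 and 10 allow at most 2.19, 2.06 and 2.57 CPM by the same method.

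**Figure D2:**
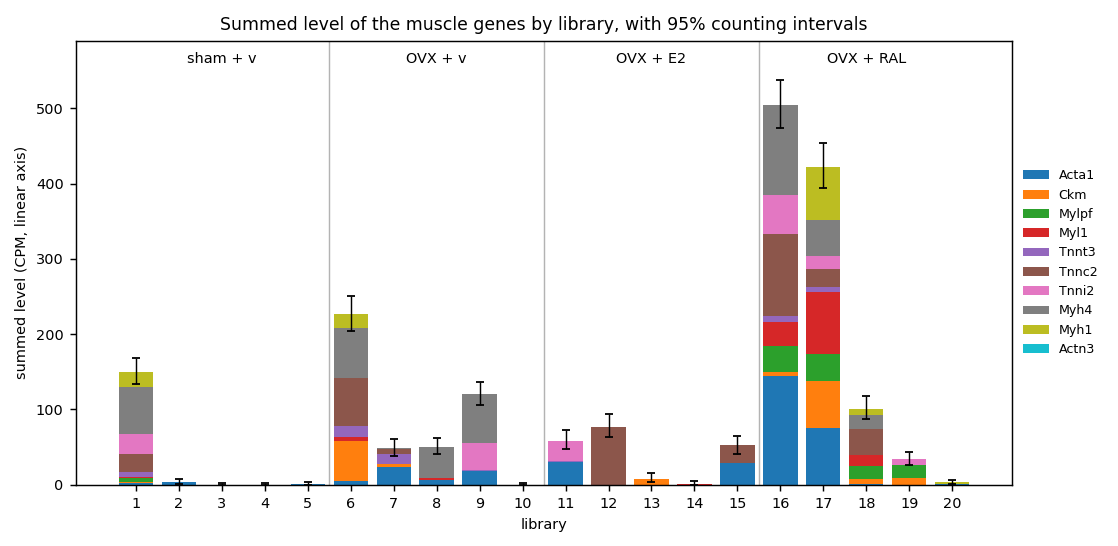
Summed level of the members (CPM, linear axis from 0) in each library, with a colour for each gene and 95% exact binomial intervals of the sum. Libraries 16 and 17 stand highest at 505 and 423 CPM, and each group also holds libraries at or close to 0.

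The sums were 30.8 ± 66.7 CPM in sham + v, 89.2 ± 88.1 in OVX + v, 39.2 ± 33.2 in OVX + E2 and 213 ± 233 in OVX + RAL (mean ± SD, n = 5 each). The medians of these groups were 0.663, 50.4, 51.9 and 101 CPM. Every difference between neighbouring group means was smaller than the larger SD of the pair, and the groups accounted for 27.9% of the variance of the sum on the log2(CPM + 1) scale, or 44.5% without library 1. A single library carried the sham + v mean, which was 0.953 CPM without library 1, and the OVX + v mean was 54.8 CPM without library 6. The OVX + RAL mean was 46.0 CPM without libraries 16 and 17. The members detected in at least 1 library numbered 7 in sham + v, 8 in OVX + v, 4 in OVX + E2 and 9 in OVX + RAL, in 8, 18, 6 and 27 of 50 pairs. Genes of any kind with 3 counts numbered 8087 to 10143 per library in sham + v, 9381 to 9929 in OVX + v, 6530 to 8907 in OVX + E2 and 9477 to 9782 in OVX + RAL, so fewer genes were also detected over the whole table in the OVX + E2 libraries than in those of OVX + v and OVX + RAL. The part of this in the members' detection was not tested.

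The 12 libraries with more than 10 member counts also differed in which member led. *Myh4* led in libraries 1 (41.2% of the member counts), 6 (29.4%), 8 (83.1%) and 9 (53.9%), *Acta1* in libraries 7 (48.1%), 11 (51.1%), 15 (55.4%) and 16 (28.6%), *Myl1* in library 17 (19.7%), *Tnnc2* in library 18 (34.3%) and *Mylpf* in library 19 (49.2%). The richest OVX + E2 library, 12, held 102 counts, all of them of *Tnnc2*. Library 6 held 364 counts with 0 of *Mylpf* and *Tnni2*, and library 16 held 982 with 0 of *Myh1*. The within-group SD on the log2(CPM + 1) scale had a median of 1.90 over the 9 members tested, against 1.76 over all genes tested. The share of variance between groups had a median of 18.4%, against 14.6%. Among the members it ranged from 10.6% (*Tnnc2*) to 65.8% (*Mylpf*).

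The comparison of sham + v with OVX + v asks what the loss of the ovaries changes. In edgeR's quasi-likelihood test, adjusted over all genes by the Benjamini-Hochberg method, 0 of 9 members tested passed the adjusted threshold of 0.05, at which 0.0145% of 13825 genes were called. At an unadjusted p under 0.05 it was 1 of 9, against 12.5% of all genes. That member was *Mylpf*, at 1.27 ± 2.83 CPM in sham + v and 0 in OVX + v (log2 fold change 4.22, SE 2.1, adjusted p = 0.367, edgeR), and its counts came from library 1 alone. With every OVX + v library at 0, this fitted value depends on the prior count of the fit. Fitted values of 7 members lay below 0 and of 2 above, with a median log2 fold change of −1.57 against −0.02 over all genes. DESeq2 gave 6 members a p and only 2 of them, *Tnnc2* and *Myh4*, an adjusted p. It called neither, limma called 0 of 9, and both tools had 0 members at an unadjusted p under 0.05. All the members' sham + v counts but 7 stood in library 1.

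The comparison of OVX + E2 with OVX + v asks what estradiol changes after ovariectomy. By edgeR 0 of 8 members tested passed the adjusted threshold, at which 0.0584% of 13695 genes were called, and 2 of 8 had an unadjusted p under 0.05, against 13.9% of all genes. *Myh4* was at 34.8 ± 33.0 CPM in OVX + v and at 0 in all 5 OVX + E2 libraries, at least 15.2-fold lower when the latter are set to the floor of 3 counts in each library. Its fitted log2 fold change was −8.72 (SE 2.71) with an adjusted p of 0.351 by edgeR. Over the alternatives tried, apart from a fit with the members' sum as a covariate, this adjusted p ranged from 0.0317, by DESeq2, to 0.836, by limma. DESeq2 alone of the alternatives that tested *Myh4* called it. The exact permutation test on log2(CPM + 1), two-sided over all groupings of 5 and 5 libraries, gave p = 0.0476, where 0.00794 is the smallest it can give. The OVX + v and OVX + E2 libraries overlapped at 0, with OVX + v library 10 there too.

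*Myh1* was the other member, at 3.74 ± 8.36 CPM in OVX + v and 0 in OVX + E2 (adjusted p = 0.351, edgeR). Its counts stood in library 6 alone, it was at least 1.63-fold lower, and the exact permutation test gave p = 1. The median log2 fold change of the 8 members was −2.78, or −1.74 with the 2 at their bounds, against −0.06 over all genes. *Acta1* (11.7 ± 16.1 CPM against 10.4 ± 9.58) and *Tnnc2* (20 ± 33 against 14 ± 28) had means above those of OVX + v, but neither direction held under every alternative. The median of *Acta1* was 0 CPM in OVX + E2 and 6.24 in OVX + v, its difference on log2(CPM + 1) was −0.88, and its log2 fold change by edgeR, 0.18, was −0.14, −0.52 and −0.47 without library 10, 11 and 15. That of *Tnnc2*, 0.48, was −1.29 without library 12. *Mylpf* and *Actn3* were at 0 in all 10 libraries. DESeq2 gave 5 members a p and 3 an adjusted p and called 1, *Myh4*, and limma called 0 of 8, with 1 at an unadjusted p under 0.05 by each.

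The comparison of OVX + RAL with OVX + v asks the same of raloxifene. By edgeR 0 of 9 members passed the adjusted threshold, at which 0.0286% of 14002 genes were called, and 1 of 9 had an unadjusted p under 0.05, against 12.1% of all genes. *Mylpf* was at 20.8 ± 14.7 CPM in OVX + RAL, where 4 of 5 libraries had counts, and at 0 in all 5 OVX + v libraries. It was at least 11.5-fold higher at the same floor, with a fitted log2 fold change of 8.22 (SE 2.75). Its adjusted p was 0.402 by edgeR, and 0.164 to 0.924 over the alternatives other than the fit with the covariate. The exact permutation test gave p = 0.0476, and the groups overlapped only in library 20, at 0. Of the 26 member tests of this kind over the 3 comparisons, 2 gave an unadjusted p under 0.05, those of *Myh4* and *Mylpf* above.

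Fitted values of 8 members lay above 0 and of 1 (*Tnnt3*) below, with a median of 1.21 against −0.03 over all genes. Without libraries 16 and 17, the values of *Acta1*, *Ckm*, *Tnnc2*, *Tnni2*, *Myh4* and *Myh1* turned below 0, to between −4.07 and −0.00040. *Myl1* was at 25.8 ± 34.7 CPM against 1.70 ± 2.72 (log2 fold change 3.87, SE 2.04, adjusted p = 0.462, edgeR), and *Acta1* at 44.2 ± 64.7 against 10.4 ± 9.58 (2.08, SE 1.24, adjusted p = 0.649, edgeR). The fold change of *Myl1* was 2.70 without library 17, 5.33 without library 6 and 1.49 without libraries 16 and 17, and that of *Acta1* was 0.88 without library 16, on the same log2 scale. DESeq2 and limma called 0 members, with 2 and 1 at an unadjusted p under 0.05.

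**Figure D3:**
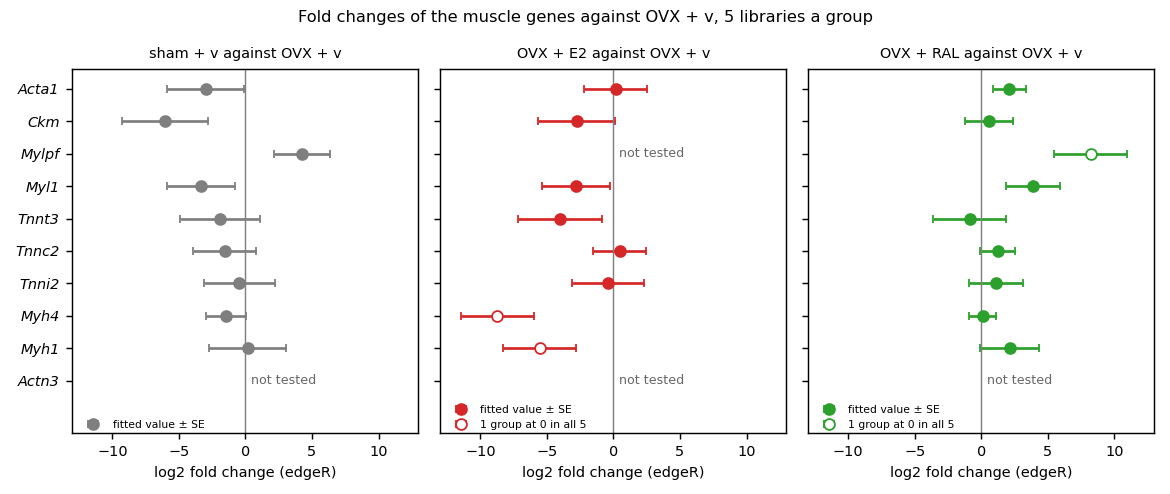
Log2 fold change of each member against OVX + v by edgeR, with bars for the SE and 5 libraries in each group. Open circles mark members at 0 in all 5 libraries of 1 group with a mean above the floor of 3 counts in the other. *Mylpf* in sham + v against OVX + v is drawn filled, as its sham + v mean lies under that floor. The fitted values of all these members depend on the prior count, and 0 members pass the adjusted threshold.

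In a test of any difference between the 4 groups, edgeR called 0 of 9 members at the adjusted threshold (0.141% of 14870 genes were called). At an unadjusted p under 0.05 there were 3 of 9 (*Myh4*, *Mylpf* and *Myl1*), against 16.3% of all genes. The smallest adjusted p, of *Mylpf* and *Myh4*, was 0.134 (edgeR). Without library 1, which holds the *Myh4* counts of the sham + v group, *Myh4* had an adjusted p of 0.0207 and was called. By DESeq2 and limma 0 members were called, with 2 at an unadjusted p under 0.05 by each.

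The other 40 genes listed for fast muscle are not all confined to fast fibres. The list held a few genes counted everywhere and many counted in few libraries. Of the 40 genes, 3 were at 0 throughout and 24 had at least 100 counts. They were detected in a median of 4 libraries each, with 22 in 4 libraries or fewer and 26 at a median of 0 CPM. The list summed to between 649 and 1833 CPM, but *Smpx*, *Xirp2*, *Mybpc1*, *Tpm1* and *Cox7a1*, the 5 genes detected in 20 of 20 libraries, made up 71.6% of its mean sum. The first 3 of these, its most counted genes, lay at 133 to 485, 35.5 to 449 and 23.1 to 387 CPM. *Smpx* and *Xirp2* encode actin-associated proteins that hair cells also make. By edgeR 0 of the 27, 26 and 35 list genes tested were called in sham + v, OVX + E2 and OVX + RAL, with 12, 5 and 16 at an unadjusted p under 0.05 (12.5%, 13.9% and 12.1% over all genes). Their median log2 fold changes were −1.23, −0.30 and 0.42. Over the 4 groups it was 0 of 37, with 19 at an unadjusted p under 0.05 against 16.3% of all genes.

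Several genes that define slow and developing fibres were at 0 in every library. Of 10 slow fibre genes 4 were at 0 in all libraries (*Myh7*, *Myh7b*, *Tnni1* and *Csrp3*). The most counted of the list were *Tpm3* (4381 counts), a tropomyosin with forms outside muscle, *Tnnt1* (279) and *Myl2* (41). *Myl2*, *Myl3* and *Myoz2*, slow fibre genes of which the last 2 were chosen after their values were seen, had 41 of 41, 27 of 28 and 28 of 28 counts in library 16, the library that also held *Myh2*. Of 15 genes of developing muscle, satellite cells and the end plate, 6 were at 0, among them *Myod1*, *Myf5* and *Pax7*, which specify myogenic cells. *Chrnb1* (1117 counts), *Chrna1* (404) and *Musk* (53), of the end plate, led that list. Of the 8 cardiac genes *Myl7* and *Myl4* were at 0 and *Tnnt2* (219), *Actc1* (103) and *Tnni3* (82) led. By edgeR 0 genes of these 3 lists were called in any comparison. At an unadjusted p under 0.05 in the test of any difference there were 4 of 6 slow, 7 of 9 developing and 1 of 4 cardiac genes tested, against 16.3% of all genes. In sham + v against OVX + v these were 0 of 3 slow, 4 of 7 developing and 1 of 3 cardiac genes, against 12.5% of all genes. In OVX + E2 they were 0 of 2, 3 of 6 and 2 of 4, against 13.9%, and in OVX + RAL 3 of 5, 6 of 8 and 1 of 4, against 12.1%.

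Across the 20 libraries, the genes most like the summed members were sought among 12326 genes with at least 100 counts. Pearson's r on log2(CPM + 1) is given as a description, as points share their library and its depth. *Atp2a1*, the calcium pump of the fast sarcoplasmic reticulum, was among the first 10 (r = 0.75) as the only gene of the fast muscle list, of which 24 were searched. It had 54, 0, 0, 6 and 0 counts in sham + v, 143, 0, 206, 22 and 0 in OVX + v, 79, 0, 0, 0 and 1 in OVX + E2, and 159, 291, 65, 20 and 0 in OVX + RAL. Like the members, it was at 0 in libraries 3 and 10, while library 8, where the members summed to 50.4 CPM, held its second highest count. The next of the list were *Mb* (r = 0.60), which stores oxygen, *Cox6a2* (0.57), a subunit of cytochrome oxidase in muscle, and *Neb* (0.56), nebulin, at ranks 75, 113 and 132. The list had a median r of 0.35, against 0.05 over all genes searched.

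The other 9 of the first 10 stood in none of the lists. They were *Gfm2* (r = 0.80), *Srsf6* (0.77), *Otos* (0.77), *Zfp960* (0.75), *Gjb6* (0.74), *Spp1* (0.73), *S100b* (0.73), *Rusc1* (0.73) and *Slc4a10* (0.73). *S100b*, a calcium-binding protein, was at 19637 and 19944 CPM in libraries 16 and 17, and at 11427 CPM in library 1. In the other 17 libraries it lay between 5300 and 10189 CPM. *Otos*, otospiralin of inner ear connective tissue, was at 4589 and 3779 CPM in libraries 16 and 17 and at 1410 to 2974 CPM in the others. *Gjb6* (connexin 30) and *Spp1* (osteopontin) were also highest in library 16, at 1184 and 1515 CPM.

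**Figure D4:**
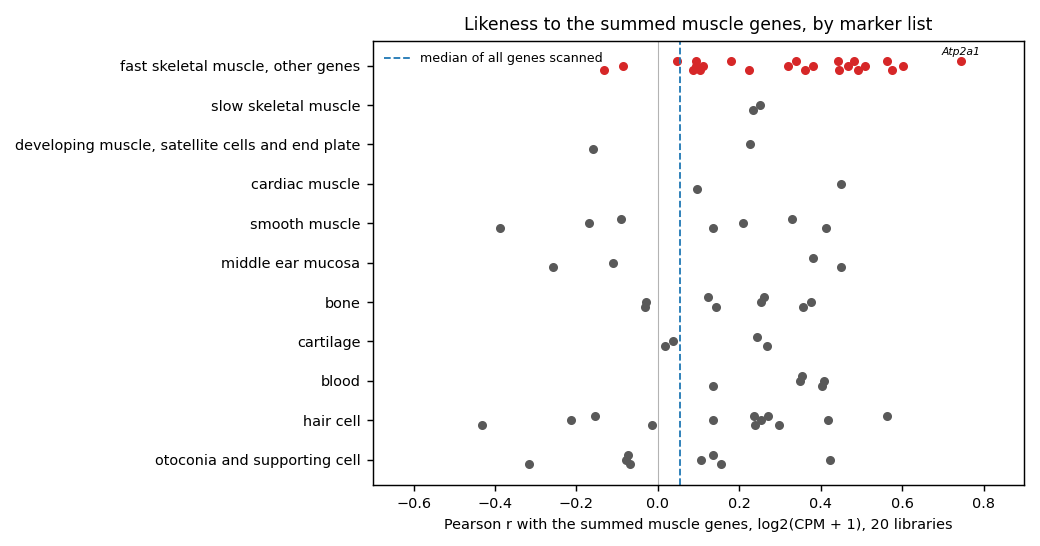
Pearson r of each marker gene with at least 100 counts with the summed members, on log2(CPM + 1) over 20 libraries, by list. *Atp2a1* stands at 0.75, the median of the fast muscle list is 0.35 and the dashed line marks the median of 0.05 over all genes searched.

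*S100b* was also 1 of the 8 genes called between OVX + E2 and OVX + v. It was at 6255 ± 1133 CPM in OVX + E2 and 9141 ± 1039 in OVX + v (log2 fold change −0.55, SE 0.08, adjusted p = 5.16e-08, edgeR). With the summed level of the members as a covariate, its log2 fold change was −0.50 (SE 0.08, adjusted p = 2.29e-07, edgeR). Of the 8 genes called in that comparison 7 were still called with the covariate, and of the 4 called in OVX + RAL all 4. Of the 2 called in sham + v 0 were, with 5 others in their place.

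Lists of other tissues that a dissection could include, and of the utricle's own hair cells, otoconia and supporting cells, were read in the same libraries. Libraries 16 and 17 ranked 1st and 11th of 20 for 9 bone genes (832 and 372 CPM, with 122 to 832 over all libraries), led by *Col1a2*, *Col1a1* and *Ibsp*. They ranked 2nd and 16th for 6 blood genes (2909 and 825 CPM, range 363 to 3837), led by *Hba-a2*, *Hbb-bs* and *Hba-a1*, and 15th and 2nd for 9 smooth muscle genes (180 and 341 CPM, range 48.4 to 498), led by *Myl9*, *Mylk* and *Smtn*. For 6 cartilage genes (*Cnmd*, *Col9a1*, *Col2a1* leading) they ranked 12th and 18th, and for 8 genes of the middle ear mucosa (*Wfdc2*, *Bpifa1*, *Foxj1*) 5th and 13th. *Matn1* of cartilage and *Muc5b*, *Scgb1a1* and *Scgb3a2* of the mucosa were at 0 throughout. *Wfdc2*, *Foxj1* and the leading cartilage genes were detected in every library. *Bpifa1*, secreted by the mucosa, peaked at 1738 CPM in library 19, where the members summed to 34.1 CPM. For otoconia and supporting cells, a sum carried mostly by *Otog*, they ranked 20th and 11th (1447 and 2730 CPM), and for hair cells 12th and 18th. The median r with the summed members was 0.20 for bone, 0.35 for blood and 0.24 for hair cells. It was 0.14 for cartilage and for smooth muscle, 0.13 for middle ear mucosa, and 0.02 for otoconia and supporting cells. By edgeR 0 genes of these 7 lists were called in any of the 3 comparisons with OVX + v, and *Bpifa1* was the 1 gene of these lists called for any difference between the 4 groups. The part of carried-over tissue in the values of the members was not tested.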

How the data were processed

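Per the labels and the study's methods, the authors trimmed adaptors, the first 12 nucleotides and low-quality ends, dropped reads under 20 nucleotides, and mapped to GRCm39 in CLC Genomics Workbench with its default settings. Its version, and what these defaults do with strand and with reads matching several genes, are not given in the sources used here. The deposited counts are the authors' raw reads per gene, not normalized, and the deposited normalized columns, fold changes and p-values were not used. The tables hold 25655 genes, of which 15803 had a count, and the 10 columns given in more than 1 table were identical. Of 40 replicate pairs 0 were identical.

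CPM was computed from library totals (1123053 to 2081747). Genes with at least 10 counts over the fitted libraries were tested with glmQLFit and glmQLFTest of edgeR 4.0.16 in R 4.3.3, each group against OVX + v in a fit of 10 libraries and all 4 groups in 1 fit of 20, with the total as library size and Benjamini-Hochberg adjustment. An SE is the absolute log2 fold change divided by √F. Alternatives were TMM, other filters, DESeq2 1.42.0, limma 3.58.1 on log2(CPM + 1), the robust form, all libraries in 1 fit, library size without the members, the members' summed log2 CPM as covariate, and each library left out. The fit with the covariate is left out of the values and ranges given for single members. The pipeline was tested on data simulated for sham + v against OVX + v, with 200 genes changed by a log2 fold of 3. All tools missed most of these at the estimated spread. There edgeR recovered 67 with 18 false calls, DESeq2 59 with 94 and limma 40 with 3. At a dispersion of 0.1 they recovered 192, 186 and 191, with 8, 15 and 8 false calls. Exact permutation tests, intervals and correlations used Python 3.11.15 with scipy 1.17.1. Windows of 63 nucleotides from the ends of the members' canonical transcripts were searched in all transcripts of the GENCODE vM39 annotation, over their full length.

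The members and lists were chosen with earlier results of these data known. Of each list the 3 genes with the most counts, and the 10 genes most alike, are named, and any other gene was named after its values were seen. The result of 1 further list is not reported here.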

Additional observations from a re-analysis of the deposited data

Results flagged for a closer look

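In 19 of 36 sets of 5 values (9 members and their sum, in each group with a count), 1 library stood apart from the other 4 by Dixon's ratio, the gap to the nearest value over the whole range, above the 95% limit of 0.71. Chance alone gives about 1.8 of 36, but values that are mostly 0 reach the limit with any single count. In the sham + v group, library 1 stood apart for the summed members (150 CPM, next 3.15 CPM) and for *Mylpf* (6.33 CPM), *Tnnt3* (7.31 CPM), *Tnnc2* (23.9 CPM), *Tnni2* (26.3 CPM), *Myh4* (61.9 CPM) and *Myh1* (20.9 CPM), with the other 4 libraries at 0 for each of these genes. It also did for *Ckm* and *Myl1*, at 0.487 CPM each, which is 1 count and under the floor. In the OVX + v group, library 6 stood apart for *Ckm* (52.3 CPM, next 4.39 CPM), *Tnnc2* (64.2 CPM, next 7.53 CPM) and *Myh1* (18.7 CPM, next 0), and library 9 for *Tnni2* (36.2 CPM, next 0). In the OVX + E2 group it was library 13 for *Ckm* (8.02 CPM), library 11 for *Tnni2* (27.2 CPM) and *Tnnt3* (1.33 CPM, 2 counts), and library 14 for *Myl1* (0.890 CPM, 1 count). In the OVX + RAL group it was library 17 for *Ckm* (63 CPM, next 8.92 CPM) and *Myh1* (71.1 CPM, next 8.81 CPM).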

How the results depend on the processing

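With the default filter of edgeR 0 members were tested in sham + v and in OVX + E2, so it gave no value there, and 3 were tested in OVX + RAL and 6 for any difference. DESeq2 gave 2, 3, 8 and 9 members an adjusted p in sham + v, OVX + E2, OVX + RAL and for any difference. Under the alternatives that tested members the count past the adjusted threshold was 0, with 2 exceptions: DESeq2 called 1 (*Myh4*, log2 fold change −7.99) between OVX + E2 and OVX + v, and the test of any difference without library 1 called 1 (*Myh4*, range without 1 library 0 to 1 members, adjusted p 0.0207 to 0.190). Of 717 values of single members under alternatives 468 had a direction, and of these 30 turned it. Of the 717, 2 passed the threshold where the main value had not. For OVX + RAL without libraries 16 and 17 (chosen after seeing the data) the log2 fold changes were −4.07 (*Acta1*), −1.19 (*Ckm*), −0.31 (*Tnnc2*), −1.35 (*Tnni2*), −2.47 (*Myh4*) and −0.00040 (*Myh1*). On log2(CPM + 1), by limma and the permutation test, they were −0.28 for *Myh4* in OVX + RAL and −0.88 for *Acta1* in OVX + E2. Without 1 library they ranged from −7.61 to 1.31 (*Tnnc2*), −6.64 to 6.19 (*Tnni2*) and −5.70 to 5.90 (*Myh1*) in sham + v, from −0.52 to 0.71 (*Acta1*), −7.13 to 0.51 (*Ckm*), −1.29 to 3.36 (*Tnnc2*) and −6.46 to 6.00 (*Tnni2*) in OVX + E2, and from −1.18 to 3.84 (*Ckm*), −0.15 to 7.79 (*Tnni2*), −1.06 to 0.47 (*Myh4*) and −0.41 to 7.90 (*Myh1*) in OVX + RAL.

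Genes called over the whole table moved more. Against 2 in sham + v there was 1 with TMM factors and in a fit of all 20 libraries, 12 by DESeq2, 4 by limma, 5 with the covariate, and 0 with the default filter or the robust form of edgeR (1 to 10 without 1 library). Against 8 in OVX + E2 there were 38 by DESeq2, 1 with the default filter, 4 with the robust form and 2 in the fit of all libraries (6 to 17). Against 4 in OVX + RAL there were 0 with the default filter and the robust form and 1 in the fit of all libraries (3 to 11). Against 21 for any difference there were 2 by DESeq2, 1 with the default filter, 5 with the robust form and 0 by limma (17 to 28). The share of variance between groups was 21.4 to 44.5% without 1 library, highest without library 1. Of the 10 most alike genes 5 stayed under Spearman's rho and 5 without library 16. The cause of these changes was not tested. No paired analysis was possible because the groups share no replicate numbers. Depth limits each member to a floor of 1.44 to 2.67 CPM.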
